A study of Mus musculus with 5 samples.

Results

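Subclones B5 and D6 of the mouse plasma cell line AxJ, both stably transfected to overexpress hnRNP-F, were set against each other, with 1 Affymetrix expression array for each. These were 2 of the 5 arrays of the study. The other 3 carried RNA of AxJ transfected with empty vector, AxJ transfected to overexpress hnRNP-H, and A20, a mouse line that the labels call a memory B cell line. The 4 AxJ lines grew at log phase in medium with serum and G418, the drug that keeps transfected cells under selection. A20 grew without G418, and no line had any other treatment. Each AxJ line was a clone picked for high transgene protein on western blots, apart from the empty vector control, and the promoter driving the transgenes is not given in the sources used here. The probe sets described are the 4379 of 12422 (35.3 percent) that reached an intensity of 100 in B5 or in D6, and they stand for 3544 genes with a symbol of their own.

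hnRNP-F and hnRNP-H are closely related RNA-binding proteins that attach to runs of G in nuclear transcripts and take part in splice site and poly(A) site choice. In B cells the immunoglobulin heavy chain transcript is either spliced to exons that anchor the antibody in the membrane or ended early at a poly(A) site that yields the secreted form, and plasma cells use mostly the secreted form. Per the design text, the hnRNP-F clones made relatively less of the secreted and more of the membrane heavy chain than the controls. A stable transfectant carries its vector at chance places in the genome and is grown up from very few cells, so clones that received the same vector can differ in other genes too. The question here was how far 2 clones with the same transgene lay apart, since the study reads them side by side as hnRNP-F cells.

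With 1 array a side there was no replicate and no test. All differences are ratios of D6 over B5 between 2 arrays, and no spread between cultures of a clone stands behind them. Intensities under 20 were set to 20 before a ratio was taken, so a ratio against such a value is a lower bound and is written as "at least". No probe set carried the symbol Hnrnpf in the annotation used here, so the transgene could not be checked on the arrays. For Hnrnph1, a gene that encodes hnRNP-H, the intensity was 725 in B5 and 970 in D6, against 1487 with empty vector, 1056 with hnRNP-H and 1477 in A20. The array labelled hnRNP-H was thus not the highest, and whether the probes lie within the transfected sequence is not given in the sources used here, so this checks no label. Both clones expressed plasma cell genes. Jchain, which joins antibody units into polymers, measured 4193 in B5 and 3901 in D6, and Xbp1, a transcription factor of antibody-secreting cells, measured 1157 and 1061. Irf4, another such factor, measured 768 and 1308. A20 also expressed them, with 1636 for Jchain, 483 for Xbp1 and 322 for Irf4. The markers Prdm1 (95.5 in B5 and 107 in D6), Sdc1 (37.3 and 98.5) and Tnfrsf17 (43.1 and 53.6) were dim.

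The arrays differed in signs of RNA or labelling quality. The ratio of the 5' to the 3' control probe set for Gapdh was 0.181 in B5 and 0.683 in D6, against 0.212 with empty vector, 0.866 with hnRNP-H and 0.384 in A20. For Actb the ratio was 0.144 in B5 and 0.445 in D6, against 0.247, 0.587 and 0.361. B5 and the empty vector array were thus low in both ratios, and D6 and the hnRNP-H array were high in both. The 9 hybridisation control probe sets were all lower in D6 than in B5, at 0.494 to 0.693 of the B5 intensity with a median of 0.601. Array medians over all non-control probe sets were 39.5 for B5 and 39.0 for D6. The part of these array differences in the results below was not tested, except where a value is given.

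B5 and D6 were close over most of the transcriptome and far apart at a few genes. Of the 4379 probe sets, 206 (4.7 percent) differed at least 2-fold, of which 122 (2.79 percent) were higher in D6 and 84 (1.92 percent) were lower. At least 4-fold differences were seen for 19 probe sets (0.434 percent), with 7 higher and 12 lower in D6. The median log2 difference was 0.05, the quartiles were -0.22 and 0.34, and the spread over all of these probe sets had an SD of 0.50. Differences were within 1.5-fold for 81.5 percent of probe sets. The correlation of the log2 intensities of B5 and D6 was 0.945 across probe sets, which share 2 arrays and are not independent replicates.

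**Figure D1:**
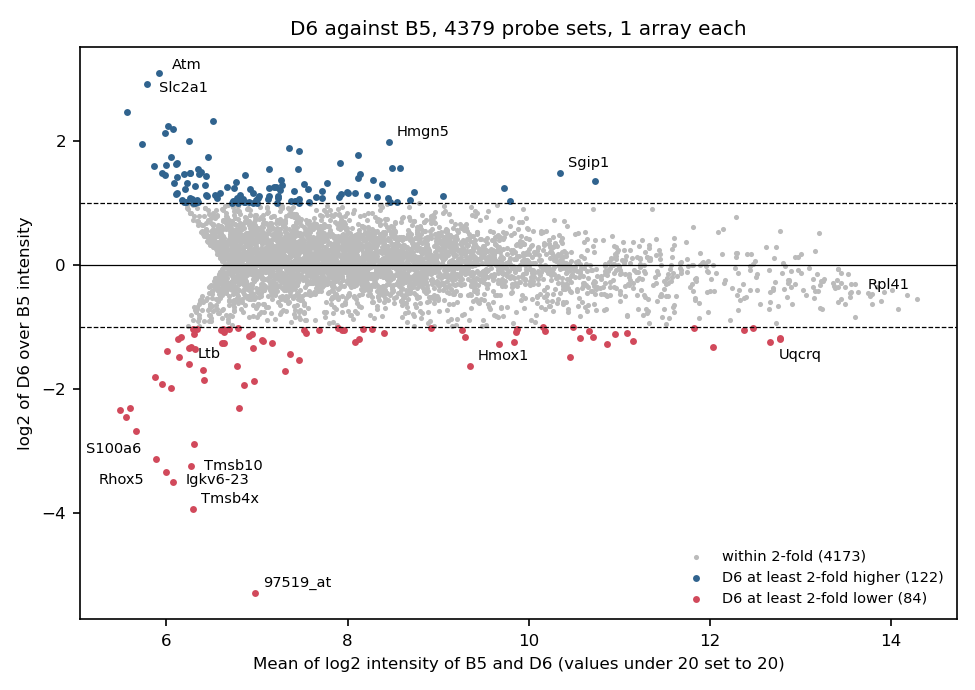
Log2 ratio of D6 over B5 against the mean log2 intensity of the 2 arrays for the 4379 probe sets, 1 point each, with the 2-fold bounds as lines. The points past the bounds gather at the dim end, Atm and Slc2a1 lead the probe sets higher in D6, and Tmsb4x, Igkv6-23 and Rhox5 are among the farthest below. Probe sets under 100 on both arrays are left out by the rule.

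Most of the 2-fold differences lay at probe sets under 100 on 1 of the 2 arrays. Of the 3781 probe sets at 100 or more on both arrays, 83 (2.20 percent) differed 2-fold, 44 higher and 39 lower in D6. Of the 598 that reached 100 on 1 of the 2 arrays, 123 (20.6 percent) did. Below a mean level of 100 the share was 23.5 percent of 327, and between 300 and 1000 it was 1.78 percent of 1350. The rule leaves out probe sets under 100 on both arrays, so the dim ones kept had 1 array at 100 or more. The shares of 20.6 and 23.5 percent can be raised by this selection and are no general property of dim probe sets. Where both arrays were at 100 or more, the farthest apart were Hmgn5, 3.95-fold higher in D6, and Hmox1, 3.10-fold lower. Hmgn5 encodes a nucleosome-binding protein, and Hmox1 encodes the inducible haem oxygenase. At the edge of the set, Hps1 was just inside with 76.7 in B5 and 100.06 in D6, and Slc5a6 was just outside with 81.5 and 99.99.

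On the deposited scale the brightest probe sets leaned toward B5, a lean that was not seen under quantile normalisation. Of the 509 probe sets at 1000 or more on both arrays, 343 were lower in D6 and 166 were higher, with a median of -0.14. There, 15 were at least 2-fold lower in D6 and 1 was at least 2-fold higher. Among the 170 with a mean of at least 3000 the median was -0.27, with 7 at least 2-fold lower and 0 higher. Over all 4379 probe sets 2415 (55.1 percent) were on the D6 side of 0. On that scale the brightest thus leaned the other way from the set as a whole. Quantile normalisation gives both arrays the same set of values and so largely removes such a lean by construction. Under it, 240 of the 509 were lower in D6 and 264 higher, with a median of 0.02. The hybridisation control probe sets leaned the same way as the bright ones on the deposited scale.

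The D6 array lay nearer to the hnRNP-H control than to the other hnRNP-F clone. By the same rule, 92 of 4385 probe sets (2.1 percent) differed 2-fold between D6 and hnRNP-H, against 4.7 percent between D6 and B5 and 319 of 4421 (7.22 percent) between B5 and hnRNP-H. The controls differed from each other at 507 of 4504 (11.3 percent). Empty vector stood farther from both clones, at 661 of 4527 (14.6 percent) for D6 and 724 of 4498 (16.1 percent) for B5. A20 differed from D6 at 28.1 percent, from hnRNP-H at 29.5 percent, from B5 at 33.2 percent and from empty vector at 33.6 percent. These pairs share arrays. The nearest pair, D6 and hnRNP-H, was alike in 5' to 3' ratio. B5 and empty vector, also alike in that ratio, were the farthest apart of the AxJ pairs. The part of RNA or labelling quality in these distances was not tested.

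**Figure D2:**
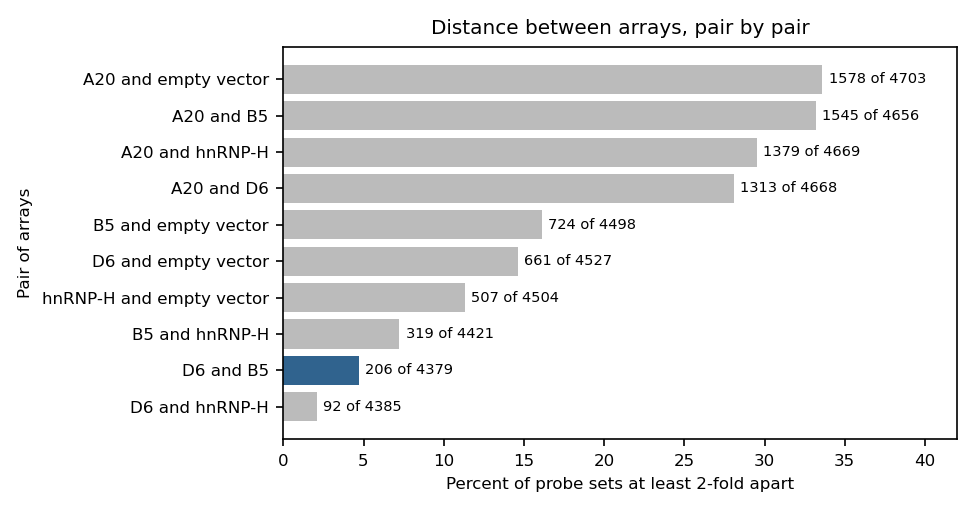
Percent of probe sets at least 2-fold apart for every pair of the 5 arrays, by the rule used for D6 against B5, as bars from 0. D6 against hnRNP-H is lowest at 2.1 percent, D6 against B5 follows at 4.7 percent, and the pairs with A20 are highest.

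Most of the genes farthest below in D6 were near the bottom of the scale in D6 and were also low in both AxJ controls, so that B5 was the line that stood out. Among them were Tmsb4x and Tmsb10, which encode thymosins that hold actin monomers, S100a4 and S100a6, which encode small calcium-binding proteins, and Rhox5, an X-linked homeobox gene known from reproductive tissue. For Tmsb4x, Rhox5, S100a4 and S100a6 the 120 bases before the RefSeq start are shown, because these 4 genes were near the floor in D6 and at 100 or more in B5, and their starts differ in CpG content. The sequences are from RefSeq on GRCm38.p6, 5′ to 3′ on the strand of the gene, with CG dinucleotides and any TATAAA in capitals.
Tmsb4x, chrX:167209219-167209338, minus strand: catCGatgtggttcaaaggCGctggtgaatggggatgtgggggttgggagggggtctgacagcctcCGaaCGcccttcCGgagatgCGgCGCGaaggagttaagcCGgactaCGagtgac
Rhox5, chrX:37754488-37754607, plus strand: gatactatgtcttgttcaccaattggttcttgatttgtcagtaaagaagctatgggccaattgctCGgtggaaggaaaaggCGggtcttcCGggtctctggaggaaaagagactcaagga
S100a4, chr3:90603650-90603769, plus strand: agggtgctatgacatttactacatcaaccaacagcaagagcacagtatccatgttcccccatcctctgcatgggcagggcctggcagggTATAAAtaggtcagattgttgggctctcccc
S100a6, chr3:90612774-90612893, plus strand: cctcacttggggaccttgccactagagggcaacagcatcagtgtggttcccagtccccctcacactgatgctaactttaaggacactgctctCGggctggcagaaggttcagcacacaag
The Tmsb4x window held 10 CG dinucleotides, a number that 23.5 percent of 32851 RefSeq windows of this length reach. Rhox5 held 3, which is the median and is reached by 55.0 percent of windows. S100a6 held 1 and S100a4 held none, as did 17.8 percent of all windows. TATAAA was searched on both strands and was found in S100a4, starting 31 bases before the gene start, and in 6.34 percent of all windows. These letters describe the windows and say nothing of which factors act there.

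Tmsb4x had an intensity of 307 in B5 and 2.36 in D6, against 5.66 with empty vector, 18.7 with hnRNP-H and 3364 in A20. Among the AxJ lines it was thus high in B5 alone, at least 15.4-fold above D6 (log2 -3.94). Tmsb10 had 238 in B5 and 25.04 in D6, with 52.0 and 28.5 in the empty vector and hnRNP-H lines and 1901 in A20 and was 9.53-fold lower in D6 (log2 -3.25). Both thymosin genes were bright in A20, and their B5 values lay between the other AxJ lines and A20.

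Rhox5 measured 203 in B5 and 18.6 in D6, against 9.80 with empty vector, 28.1 with hnRNP-H and 5289 in A20, at least 10.1-fold lower in D6 (log2 -3.34). Igkv6-23, a variable segment of the kappa light chain, measured 227 in B5 and 2.05 in D6, with 5.25 and 1.45 in the empty vector and hnRNP-H lines and 2593 in A20, at least 11.3-fold lower in D6 (log2 -3.50). Kappa variable segments resemble each other, and this probe set may read more than 1 of them. Like the thymosins, these 2 genes were bright in A20 and near the floor in every AxJ line but B5.

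S100a6 followed another pattern, with 176 in B5 and 1.88 in D6, against 2.94 with empty vector, 18.3 with hnRNP-H and 2.02 in A20, at least 8.80-fold lower in D6 (log2 -3.14). S100a4 had 101 in B5 and 14.5 in D6, with 17.2 and 5.89 in the empty vector and hnRNP-H lines and 3.18 in A20, at least 5.06-fold lower (log2 -2.34). Lgals1, which encodes the sugar-binding protein galectin-1, had 227 in B5 and 59.2 in D6, with 72.1 and 54.0 in the empty vector and hnRNP-H lines and 37.9 in A20, with a log2 difference of -1.94. Ccl3, a chemokine gene, had 132 in B5 and 33.4 in D6, with 6.32 and 25.8 in the empty vector and hnRNP-H lines and 16.9 in A20 (log2 -1.99). These 4 genes were high in B5 and low in all the other lines, A20 included. The probe set farthest apart of all, 97519_at, which has no symbol in the annotation used here and was singled out after its values were seen, did the same with 789 in B5 and 2.64 in D6, with 5.83 and 3.91 in the empty vector and hnRNP-H lines and 3.31 in A20, at least 39.5-fold lower in D6 (log2 -5.30).

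At other genes D6 was the line that stood out. Cacna2d3, which encodes an accessory subunit of voltage-gated calcium channels, measured 128 in B5 and 19.5 in D6, against 57.3 with empty vector, 121 with hnRNP-H and 4.57 in A20, at least 6.42-fold lower in D6 (log2 -2.68). Here D6 was below all 3 other AxJ lines. Hyal2, a hyaluronidase gene, was split another way, with 120 in B5 and 92.5 in hnRNP-H against 31.8 in D6 and 29.8 with empty vector (log2 -1.92).

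The remaining genes of the 15 farthest below in D6 were mostly brighter. Hmox1 measured 1149 in B5 and 370 in D6, against 439 with empty vector, 841 with hnRNP-H and 4369 in A20 (log2 -1.63). Timp1, an inhibitor of matrix metalloproteinases, measured 300 in B5 and 104 in D6, with 170 and 118 in the empty vector and hnRNP-H lines and 144 in A20 (log2 -1.53). Both had their highest AxJ value in B5 and their lowest in D6. Cwf19l1 had 272 in B5 and 101 in D6 (log2 -1.43), with 199 in the empty vector line and 112 in the hnRNP-H line. That was at 1 probe set, and its other probe sets read at most 27.5 in B5 and 10.8 in D6. Lat2 and Ltb belong to the A20-bright genes described next.

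**Figure D3:**
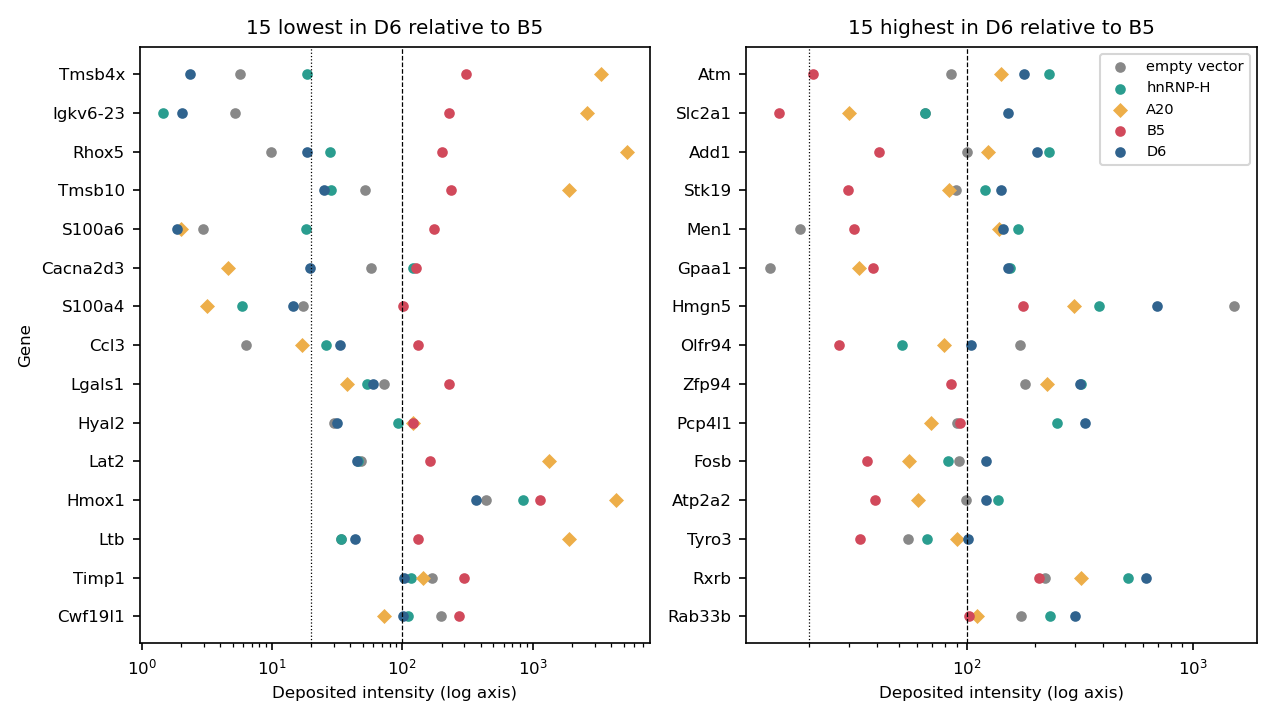
Intensity on a log axis of the genes farthest apart between D6 and B5, on each of the 5 arrays, with the floor of 20 as a dotted line, 100 as a dashed line and A20 as diamonds. Tmsb4x, Igkv6-23, Rhox5 and S100a6 are at 28.1 or lower in every AxJ line but B5, where they read 176 to 307.

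A set of probe sets bright in A20 and dim in both AxJ controls was read in the clones. Its limits use no B5 or D6 value. It took an intensity of at least 1000 in A20 and under 50 in both the empty vector and the hnRNP-H array, and it held 9 probe sets. In B5, 5 of the 9 (55.6 percent) were at 100 or more, and in D6 none was. B5 was above D6 at all 9, at least 2-fold at 8 of them, and the medians were 133 and 18.6. The A20 set was looked at because a pattern of this kind was already known from these arrays. The 5 at 100 or more in B5 are also among the 15 genes farthest below in D6 named above. The set thus reads the same values again and is no independent support.

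Its members cover unlike functions. Tmsb4x, Igkv6-23, Rhox5, Lat2 and Ltb were the 5 at 100 or more in B5. Lat2, a membrane adaptor of B cell and mast cell signalling, measured 162 in B5 and 44.6 in D6, against 48.6 with empty vector, 45.6 with hnRNP-H and 1327 in A20 (log2 -1.86). Ltb, which encodes lymphotoxin beta, measured 133 in B5 and 43.7 in D6, with 33.8 and 33.7 in the empty vector and hnRNP-H lines and 1911 in A20 (log2 -1.61). Both were alike in the other 3 AxJ lines and higher in B5. A second Lat2 probe set, under 100 in both clones and so not in the set, also differed, by -1.63.

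The B5 intensity of these probe sets was a small share of the A20 intensity. It came to 12.2 percent for Lat2, 9.13 percent for Tmsb4x, 8.75 percent for Igkv6-23 and 6.96 percent for Ltb. For Erdr1 it was 4.42 percent, for Rhox5 3.83 percent, for Clca1 3.04 percent and for Scd1, a fatty acid desaturase gene, 2.96 percent. For Spib, a transcription factor of B cells, it was 1.60 percent, with 20.7 in B5 and 11.7 in D6. Bcl6, a transcription factor of germinal centre B cells at 889 in A20, read 21.3 in B5 and 1.44 in D6. These shares include the background of each probe set, which was not removed. Spib and Bcl6 were near or under the floor in both clones, so their shares measure little beyond it.

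**Figure D4:**
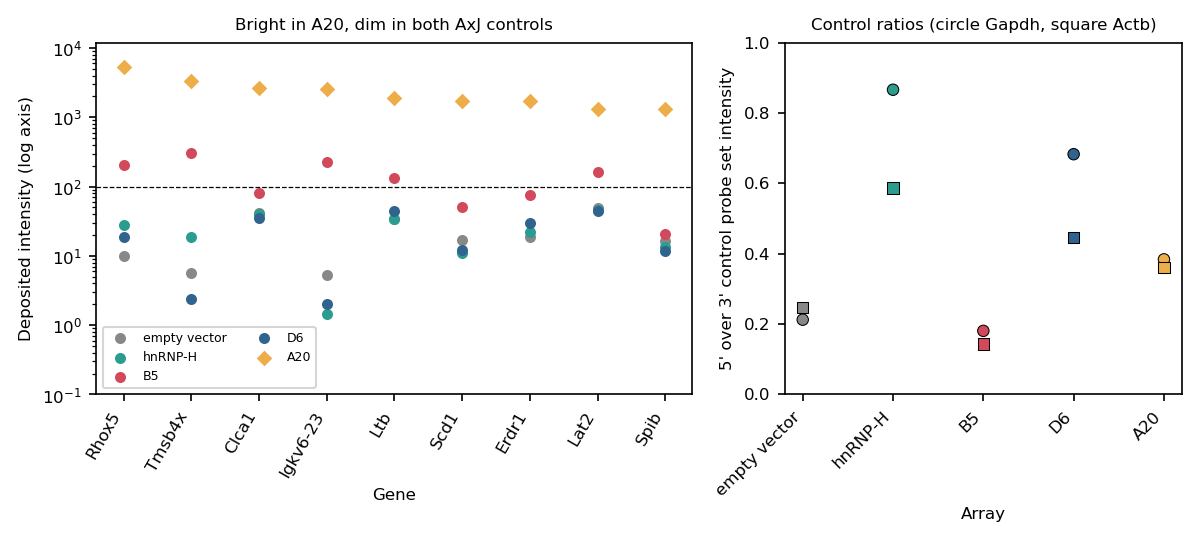
The left panel shows the 9 probe sets at 1000 or more in A20 and under 50 in both AxJ controls. It gives their intensity on each of the 5 arrays on a log axis, with 100 as a dashed line and A20 as diamonds. The right panel shows the 5' to 3' control ratio of Gapdh (circles) and Actb (squares) on each array. B5 is above D6 for all 9, and 5 pass 100 in B5 and none in D6.

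The same was counted for probe sets that were not bright in A20. Of 6182 probe sets under 50 in both controls and under 1000 in A20, 10 (0.162 percent) reached 100 in B5 and 3 (0.0485 percent) in D6. B5 was above D6 at 3788 of these 6182, so dim probe sets of this kind leaned to B5 without being bright in A20. That count was taken without the floor. The medians were 10.6 in B5 and 8.95 in D6, so most readings in each clone lay under the floor of 20. With values under 20 set to 20, B5 was at least 2-fold higher at 163 of them and at least 2-fold lower at 92. In the mirror case, under 50 in A20 and at least 1000 in both controls, there were 4 probe sets, for Trap1a, Mt1, Csn3 and 101883_s_at, the last with several symbols. All 4 were at 100 or more in both clones and within 2-fold between them. With the A20 minimum lowered to 500, a setting chosen after seeing the data, the set grew to 23 probe sets, of which 5 passed 100 in B5 and none in D6, with B5 above D6 at 20. Fewer cells of a kind that holds such RNA and less of it per cell cannot be told apart in bulk RNA.

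Genes higher in D6 were led by Atm, the kinase that answers DNA breaks, with 20.7 in B5 and 178 in D6, against 84.5 with empty vector, 230 with hnRNP-H and 142 in A20. The ratio was 8.61-fold (log2 3.11), but B5 lay just above the floor of 20, and with a floor of 50 the log2 difference was 1.83. Slc2a1, which encodes the glucose transporter GLUT1, had 14.6 in B5 and 152 in D6, with 65.3 and 65.1 in the empty vector and hnRNP-H lines and 30.1 in A20, at least 7.60-fold higher in D6 (log2 2.93). For Atm B5 was the low line, and for Slc2a1 B5 was lowest and D6 highest of all 5.

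Add1, which encodes the membrane skeleton protein adducin, measured 40.9 in B5 and 205 in D6, against 99.4 with empty vector, 231 with hnRNP-H and 124 in A20 (log2 2.32). Stk19 measured 29.7 in B5 and 141 in D6, with 89.4 and 120 in the empty vector and hnRNP-H lines and 83.3 in A20 (log2 2.25). In both, B5 was the lowest line. Men1, the gene of the nuclear protein menin, measured 31.5 in B5 and 145 in D6, with 18.2 and 168 in the empty vector and hnRNP-H lines and 139 in A20 (log2 2.20), and Gpaa1, part of the enzyme that attaches lipid anchors to proteins, measured 38.1 in B5 and 152 in D6, with 13.3 and 154 in the empty vector and hnRNP-H lines and 33.3 in A20 (3.997-fold). Men1 and Gpaa1 were low in B5 and empty vector together and high in D6 and hnRNP-H together, which is also how the 5' to 3' control ratios were split. A second Gpaa1 probe set, under 100 in both clones, differed by 0.08.

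The others of the 15 farthest above in D6 had log2 differences of 1.55 to 1.98. Hmgn5 measured 177 in B5 and 697 in D6, against 1520 with empty vector, 385 with hnRNP-H and 297 in A20, so the clones lay on both sides of hnRNP-H and under empty vector. Rxrb, a retinoid X receptor gene, measured 208 in B5 and 620 in D6, with 222 and 516 in the empty vector and hnRNP-H lines and 321 in A20 (log2 1.57), again with B5 beside empty vector and D6 beside hnRNP-H. Rab33b, a small GTPase gene of the Golgi, measured 102 in B5 and 300 in D6 (log2 1.55), with 173 in empty vector and 233 in hnRNP-H, but its second probe set, under 100, differed by 0.17. The remaining 6 were Olfr94 (1.95), Zfp94 (1.89), Pcp4l1 (1.84), Fosb (1.74), Atp2a2 (1.63) and Tyro3 (1.60). All 6 were between 27.0 and 93.1 in B5 and between 101 and 333 in D6.

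Among genes at 100 or more on both arrays, those higher in D6 had varied roles. Sgip1, an adaptor of endocytosis, measured 774 in B5 and 2173 in D6, against 1332 with empty vector, 4998 with hnRNP-H and 107 in A20 (log2 1.49). Tram1, part of the channel through which proteins enter the endoplasmic reticulum, measured 170 in B5 and 471 in D6, with 305 and 591 in the empty vector and hnRNP-H lines and 685 in A20 (log2 1.47), while a second Tram1 probe set differed by -0.05. Sh3bgrl measured 194 in B5 and 502 in D6, with 1180 and 408 in the empty vector and hnRNP-H lines and 539 in A20 (log2 1.37). B5 was the lowest AxJ line in all 3. Mrps18a, a mitochondrial ribosome gene, differed by 1.41 at the brightest of 3 probe sets in the set and by 0.18 and -0.51 at the others.

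Those lower in D6 at this level included several mitochondrial genes. Uqcrq, a subunit of respiratory complex III, measured 10053 in B5 and 4226 in D6, against 4094 with empty vector, 4578 with hnRNP-H and 4486 in A20 (log2 -1.25). Timm8b, a chaperone for import into mitochondria, measured 1411 in B5 and 597 in D6, with 586 and 598 in the empty vector and hnRNP-H lines and 233 in A20 (log2 -1.24). Bola2, which takes part in handling iron-sulfur clusters, measured 2893 in B5 and 1197 in D6, with 1276 and 991 in the empty vector and hnRNP-H lines and 487 in A20 (log2 -1.27). In all 3, B5 was more than 2-fold above every other line of AxJ, and D6 lay with the controls. Atp5md, of the ATP synthase, had 10579 in B5 and 4652 in D6 (log2 -1.19), but 9909 in the empty vector line, so there B5 was not apart. Under quantile normalisation Uqcrq and Atp5md fell inside 2-fold, at -0.91 and -0.83. Ccz1 had 425 in B5 and 185 in D6 (log2 -1.20).

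Heavy chain genes, the subject of the study, gave no common direction. Igha, the constant region of the alpha heavy chain that AxJ expresses brightly, measured 10655 in B5 and 8922 in D6, against 8345 with empty vector, 9534 with hnRNP-H and 55.1 in A20, with a log2 difference of -0.26. A dimmer Igha probe set differed by -0.52. Ighm, the mu constant region, measured 1062 in B5 and 2711 in D6, with 756 and 2769 in the empty vector and hnRNP-H lines and 6.48 in A20 (log2 1.35), so that D6 lay with hnRNP-H and B5 nearer to empty vector. Another Ighm probe set, at 121 in B5 and 47.8 in D6, was on the opposite side (log2 -1.34). Heavy chain probe sets can read related transcripts, and nothing in the annotation used here says which probes lie in secreted or membrane exons.

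Ell2, an elongation factor known to favour the secreted heavy chain form in plasma cells, was alike in both clones. It measured 1942 in B5 and 2068 in D6, against 3865 with empty vector, 2096 with hnRNP-H and 993 in A20, a log2 difference of 0.09 at its brightest probe set and 0.75 at another. The dimmest Ell2 probe set, under 100, differed by -0.73. The listed factors of cleavage and polyadenylation had 12 members at 100 or more in a clone. Of these, 0 differed 2-fold, near the 4.06 percent of all 3544 genes that did. Above 0 lay 6 and below it 6, with a median of -0.10. The largest differences were Nudt21, a subunit of cleavage factor I, with 755 in B5 and 405 in D6 (log2 -0.90), and Cpsf4 with 379 and 252 (log2 -0.59).

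Of the other lists of RNA genes, hnRNP proteins leaned to D6. Among 23 members, 2 were at least 2-fold higher in D6 and none lower, where 2.51 percent of all genes were higher and 1.55 percent lower. Above 0 lay 17, and the median was 0.29 against 0.05 for all probe sets. Hnrnpu, a nuclear scaffold protein, measured 52.4 in B5 and 142 in D6, against 261 with empty vector, 174 with hnRNP-H and 143 in A20 (log2 1.44). Hnrnpl, a splicing regulator, measured 139 in B5 and 347 in D6, with 250 and 233 in the empty vector and hnRNP-H lines and 195 in A20 (log2 1.32). B5 was the lowest line for both, and only for Hnrnpl was D6 the highest. Splicing factors had a median of 0.14 over 35 members, with Rbm39 alone past 2-fold (log2 1.04, or 0.93 under quantile normalisation), and a second Rbm39 probe set at -0.39. Transcription elongation genes had a median of 0.08 over 26 members with Ccnt1, the cyclin of the elongation kinase P-TEFb, alone past 2-fold (91.1 in B5, 215 in D6, log2 1.24).

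Genes of protein synthesis and respiration were mostly lower in D6 on the deposited scale, by small amounts. The median of 22 ribosomal protein genes was -0.43, with 20 of them below 0 and 0 past 2-fold, where 4.06 percent of all genes were. Under quantile normalisation that median shrank to -0.05, with 14 below 0. Rpl13a measured 2879 in B5 and 1654 in D6 (log2 -0.80) and Rps19 measured 12390 and 7541 (log2 -0.72). Both were also above the controls in B5, since Rpl13a had 1849 and 1156 and Rps19 had 7696 and 5815 with empty vector and hnRNP-H. Rpl41 measured 24275 in B5, 16541 in D6 and 14165 in A20 but 518 with empty vector and 164 with hnRNP-H (log2 -0.55 between the clones). Both clones were thus far above the controls at Rpl41.

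For 48 respiratory chain genes the median was -0.27, with 32 below 0 and 3 at least 2-fold lower in D6. Over all 3544 genes, 1.55 percent were at least 2-fold lower and 2.51 percent higher. Under quantile normalisation the respiratory median was -0.14, with 28 below 0 and 0 past 2-fold. Besides Uqcrq, those lower on the deposited scale were Ndufa2 of complex I, with 1340 in B5 and 658 in D6 (log2 -1.03), and Atp5l of the ATP synthase, with 8148 and 4012 (log2 -1.02). A dimmer Atp5l probe set differed by -0.33. The proteasome had a median of -0.12 over 31 members, and Psma7 was 2-fold lower (2354 in B5, 1119 in D6, log2 -1.07, or -0.97 under quantile normalisation). These lists hold many bright probe sets, and bright probe sets as a whole leaned the same way, with a median of -0.14 at 1000 or more on both arrays. In hnRNP-H over empty vector, the ribosomal median was -0.37 and the respiratory median -0.15. In that comparison hnRNP proteins had -0.29 and heat shock -0.34, against 0.29 and 0.07 in D6 over B5. Relative to hnRNP-H, the ribosomal median was 0.65 in B5 and 0.26 in D6. The respiratory median relative to hnRNP-H was 0.39 in B5 and 0.16 in D6. The part of the 5' to 3' ratio in these medians was not tested.

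**Figure D5:**
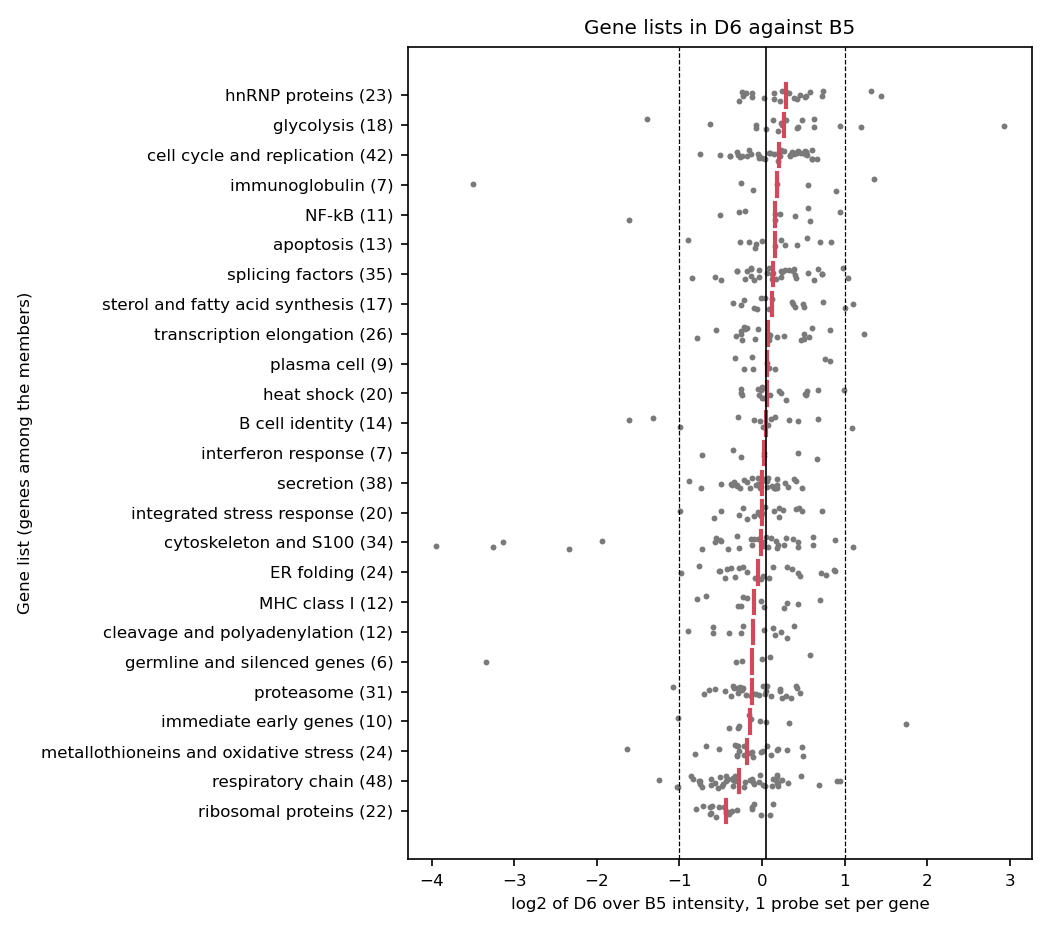
Log2 difference of D6 over B5 on the deposited scale for each gene of the lists, 1 point per gene, with the list medians as marks, the median of all 4379 probe sets as a vertical line and the 2-fold bounds as dashed lines. Ribosomal protein and respiratory chain genes lie mostly to the left, hnRNP proteins and glycolysis mostly to the right, and few points pass 2-fold.

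Glycolysis and its hypoxia-linked genes had a median of 0.27 over 18 members, with 14 above 0. Over all 3544 genes, 2.51 percent were at least 2-fold higher in D6 and 1.55 percent lower. Slc2a1 and Bnip3, a mitochondrial protein induced by low oxygen, were more than 2-fold higher in D6, Bnip3 with 139 in B5 and 320 in D6, against 212 with empty vector, 123 with hnRNP-H and 41.8 in A20 (log2 1.20). Ndrg1, also known to respond to low oxygen, went the other way, with 105 in B5 and 39.8 in D6 (log2 -1.39), and a second Ndrg1 probe set, under 100, differed by -1.01. Sterol and fatty acid synthesis had a median of 0.12 over 17 members and 2 past 2-fold. These were Hmgcs1, with 164 in B5 and 351 in D6 (log2 1.10), and Mvk, with 87.4 and 176 (log2 1.01), both enzymes early in the mevalonate pathway. Both fell just inside 2-fold under quantile normalisation, at 0.99 and 0.93.

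Cytoskeleton and S100 genes showed no shift as a group but held several of the genes farthest apart. Of 34 members, 5 were at least 2-fold lower in D6, which were Tmsb4x, Tmsb10, S100a6, S100a4 and Lgals1, and 1 was higher, Myh9 (log2 1.10). Over all genes 1.55 percent were lower and 2.51 percent higher. All 5 lower ones reached 100 in B5 alone, so the rule kept them for their B5 values. Their count is thus no independent result about the list. The list had 17 genes on each side of 0 and a median of -0.01 that turned to 0.01 under median scaling. Of 4 measured chemokine and cytokine genes, 2 were lower in D6, Ccl3 and Csf3, the latter with 154 in B5 and 64.0 in D6 (log2 -1.27). Immediate early genes were split, with Fosb higher in D6 and Gadd45b lower (688 and 341, log2 -1.01, and just inside 2-fold under median scaling), and a second Gadd45b probe set at -0.57. Of 24 genes of metallothioneins and oxidative stress 16 lay below 0, with a median of -0.18 and Hmox1 alone past 2-fold. Of 6 genes in a list of germline genes and factors of DNA methylation, Rhox5 alone was past 2-fold. The DNA methyltransferase gene Dnmt1 in that list measured 898 in B5 and 964 in D6.

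Several programmes had 0 genes past 2-fold at the brightest probe set, where the share over all 3544 genes was 4.06 percent, so that a count of 0 is near that share in lists of this size. Folding in the endoplasmic reticulum had 24 members with a median of -0.05, secretion had 38 with a median of 0.00448, and the integrated stress response had 20 with a median of -0.00493 that turned to 0.01 under median scaling. Cell cycle and replication had 42 members with 27 above 0 and a median of 0.21, with Mki67, a marker of dividing cells, at 505 in B5 and 801 in D6 (log2 0.67). Heat shock had 20 members and a median of 0.07, led by the co-chaperone Stip1 with 313 in B5 and 625 in D6, just under 2-fold and just past it under median scaling (1.02). MHC class I (12 members, median -0.10, or 0.02 under quantile normalisation), MHC class II (3 members, 0.28), interferon response (7 members, 0.02) and apoptosis (13 members, 0.16) also had none. In MHC class I the largest differences were H2-M3 (-0.78) and H2-Q4 (0.71), on opposite sides. In folding, the chaperone regulator Dnajc3 differed by -0.98 at its brightest probe set, -1.63 at another and -0.10 at the third. Pdia6, a disulfide isomerase, differed by 0.88, 1.57 and -0.22. Ero1a, an oxidase for disulfide bonds, differed by 0.87 at its brightest probe set and by 1.77 at another, with 150 in B5 and 513 in D6. In heat shock, a probe set of the chaperonin gene Cct5 other than the brightest differed by -1.04. The counts of 0 thus hold for the brightest probe set of each gene only, and Dnajc3, Pdia6, Ero1a and Cct5 had another past 2-fold.

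The plasma cell genes at 100 or more in a clone lay within 2-fold, where 4.06 percent of all 3544 genes did not. Of 9 such members 5 lay above 0, with a median of 0.07, and the largest differences were Spn, a surface sialoprotein, with 418 in B5 and 741 in D6 (log2 0.83), and Irf4, a transcription factor needed for plasma cells, with 768 and 1308 (log2 0.77). Prdm1, which encodes the repressor Blimp-1, measured 95.5 in B5 and 107 in D6. Sdc1, the plasma cell surface marker CD138, was under 100 on both arrays and so not counted, but differed more than 2-fold, with 37.3 in B5 and 98.5 in D6 (log2 1.40). Summed over the list, the intensity was 10711 in B5 and 11147 in D6, against 12926 to 14172 in the controls and 4951 in A20.

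B cell identity genes had 14 members with a median of 0.04, of which 2 were at least 2-fold lower in D6 and 1 higher. Over all 3544 genes, 1.55 percent were lower and 2.51 percent higher. The 2 lower ones, Prkcb and Ltb, reached 100 in B5 alone and so entered the list through B5. Prkcb, the protein kinase C beta of B cell receptor signalling, measured 122 in B5 and 49.1 in D6, against 49.5 with empty vector, 59.8 with hnRNP-H and 3074 in A20 (log2 -1.32), and Ltb was also lower in D6. Btk, a kinase of the same receptor pathway, was higher in D6, with 103 in B5 and 220 in D6, with 71.3 and 192 in the empty vector and hnRNP-H lines and 307 in A20 (log2 1.09, or 0.99 under quantile normalisation). Of the defining B cell markers, Ms4a1, which encodes CD20, had 115 in B5 and 58.2 in D6, Cd79a 62.2 and 23.5, Pax5 56.3 and 48.8, and Cd22 13.1 and 8.60. Cd22 was under the floor in both clones, and of the other 3 only Ms4a1 reached 100, with 117 in empty vector as well. Cd79b, the partner of Cd79a in the B cell receptor, was on the D6 side, with 478 in B5 and 762 in D6 (log2 0.67). The summed list was 6565 in B5 and 6856 in D6, and 23278 in A20.

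Few markers of other cell types reached 100 in either clone. The myeloid markers had 3 members at 100 or more, with summed intensities over the measured list of 959 in B5, 837 in D6, and 643 to 836 elsewhere. Lyz2, the macrophage lysozyme gene, was under 100 everywhere but read 47.5 in B5 against 1.21 in D6 and 1.61 to 5.16 elsewhere, and Cd14 read 241 in B5 and 132 in D6 (log2 -0.87). Cd68 and Csf3r were on the other side, Cd68 with 103 in B5 and 146 in D6 (log2 0.50) and Csf3r with a log2 difference of 0.29. Csf1r read 68.0 and 55.4, and Itgam and Mpo were under 20 in both clones. T cell markers summed to 427 in B5 and 390 in D6, with Cd3e at 18.5 and 8.66. Erythroid markers summed to 525 and 374, and stromal markers to 1723 and 1284, with 1 of 3 members, Timp1, at least 2-fold lower in D6. Over all 3544 genes, 1.55 percent were at least 2-fold lower in D6. The part of cells of other types in the results was not tested.

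Set beside the controls, the 2-fold differences were sorted by which AxJ array stood apart. This sorting covered only probe sets already 2-fold apart between the clones, which meets part of each condition in advance. No share over all 4379 probe sets was computed, here or for the splits in the next paragraph. Among the 122 probe sets higher in D6, B5 was at least 2-fold below all 3 other AxJ arrays at 26 and D6 at least 2-fold above all 3 at 3, which were Cln6, Tufm and Tyk2. Among the 84 lower in D6, B5 was apart at 27 and D6 at 5, which were Cacna2d3, a probe set of Dnajc3, Actr6, Zfp110 and 94240_i_at, the last with several symbols. At 72 of the 122 and 46 of the 84, neither clone stood apart in this way and no split of the lines into pairs was seen. At the 122, D6 was within 2-fold of hnRNP-H for 115, and B5 was at least 2-fold below hnRNP-H for 70. At the 84, D6 was within 2-fold of hnRNP-H for 70, and B5 was at least 2-fold above it for 41.

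A split of B5 and empty vector against D6 and hnRNP-H was seen at 20 of the 122 and at 2 of the 84. The 5' to 3' ratios were split the same way, and their part in these counts was not tested. Besides Men1, Gpaa1, Ighm, Rxrb and Ccnt1 this split held Eif4ebp2, a repressor of translation initiation. Eif4ebp2 had 32.4 and 124 in empty vector and B5 and 264 and 290 in hnRNP-H and D6. Rhog, a small GTPase gene, had 28.3 and 95.2 against 238 and 229. The 2 lower in D6 were 162370_r_at, without a symbol, and a probe set of Taf1d. The opposite split, of B5 and hnRNP-H against D6 and empty vector, was seen at 1 of the 122, Olfr94, and at 4 of the 84, which were Hyal2, Ift46, a dim probe set of Ddx6 and 96308_r_at, the last with several symbols.

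The hnRNP-H and empty vector arrays share none of the B5 and D6 intensities and differ in 5' to 3' ratio in the same direction as D6 and B5. Over the 4379 probe sets, 7.28 percent were at least 2-fold higher in hnRNP-H than with empty vector and 3.22 percent were lower. Of those higher in D6, 28.7 percent were also higher in hnRNP-H and 3.28 percent lower. Of those lower in D6, 5.95 percent were higher in hnRNP-H and 11.9 percent lower. The correlation of the 2 log2 differences was 0.207 across probe sets, given as a description. What these pairs have in common besides the 5' to 3' ratio was not tested.

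Where a gene had several probe sets, these often disagreed. Of 377 genes with 2 or more probe sets in the set, 204 had all on one side of 0. A 2-fold difference was seen in 48 of them, and in 28 of the 48 all probe sets were on one side. In 2 genes more than 1 probe set was past 2-fold in the same direction. These were Taf1d, a subunit of the RNA polymerase I initiation factor SL1, and Polr3k, a subunit of RNA polymerase III. The brightest Taf1d probe sets measured 2349 and 2287 in B5 and 836 and 1010 in D6 (log2 -1.49 and -1.18), and the third measured 110 and 31.3. Polr3k measured 943 and 419 in B5 and 422 and 176 in D6 (log2 -1.16 and -1.25). Both genes were low in hnRNP-H as well, with 1496 for Taf1d against 4327 with empty vector and 336 for Polr3k against 812 at those probe sets. In Ighm, as given above, probe sets were past 2-fold in both directions. Some large differences were at a probe set other than the brightest of its gene. Gnb1, a G protein subunit gene, had 11.3 in B5 and 111 in D6 at such a probe set, at least 5.57-fold higher in D6 (log2 2.48), but 0.01 and 0.27 at its other probe sets in the set.

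Some of the differing genes were neighbours in the genome. In RefSeq order, 3537 genes of the set made 3517 adjacent pairs, and in 9 both genes were past 2-fold, 8 of them in the same direction. These pairs were picked out after their values were seen, and no expected number was computed. Hmgn5 and Sh3bgrl, on the X chromosome, were the pair with no other coding gene between them, and both were highest with empty vector and lowest in B5. S100a4 and S100a6 lie with 1 coding gene between, as do Pim2 and Pqbp1 (1.03 and 1.45), Hmgcs1 and Zfp131 (1.10 and 1.29) and Uqcc2 and Lemd2 (-1.06 and -1.04). The others were Pla2g6 and Csnk1e, Bnip3 and Inpp5a, and Rbfox2 and Myh9, with 2, 5 and 11 coding genes between. Tmsb4x, Rhox5 and Timp1, X-linked as well, were in none of these pairs.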

How the data were processed

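Polyadenylated RNA of 5 lines was biotin-labelled and measured on 1 Affymetrix array each. The deposited table gives 1 linear intensity per probe set and array, which the authors had scaled to a trimmed mean of about 150 on each array, as the values show, with 2 percent left out at each end. Which software and background step came first is not given in the sources used here. Detection calls were not used. No 2 arrays were identical.

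The deposited intensities were used without further scaling. The 66 control probe sets were left out. Values under 20 were set to 20, and log2 of D6 over B5 was taken for probe sets at 100 or more in at least 1 of the 2. At least 2-fold was counted as different. Of the 4379 probe sets, 3967 had 1 gene symbol, 185 had several and 227 none, by the platform annotation of 2016 brought up to date by gene ID. Probe sets with several symbols name no gene. Gene lists used the brightest probe set of a gene. A gene at 100 or more in 1 clone alone entered its list through that clone. List counts of such genes are thus no independent result.

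By the brightest probe set of each gene, named were the 15 genes farthest apart each way, the 8 farthest each way with both arrays at 100 or more, up to 4 genes past 2-fold from each list, otherwise the 2 farthest, and Hnrnpf, Hnrnph1, Ell2, Rpl41, Igha and Ighm. Other genes are named as markers or to fill out a small count. The members, lists and rules were chosen with earlier results of these data known. The number of arrays limits the precision. Alternatives covered scaling, the floor, the minimum intensity and 1 probe set per gene. The counting step was tested on simulated data, with Python 3.11.15, numpy 2.4.6 and pandas 2.3.3.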

Additional observations from a re-analysis of the deposited data

How the results depend on the processing

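The count of 206 probe sets at least 2-fold apart depended mainly on the minimum intensity. With 200 in 1 of the 2 arrays it was 107 of 2885 (55 higher and 52 lower in D6), with 50 it was 515 of 6096 (286 and 229), and with 100 in both it was 83 (44 and 39). With 1 probe set per gene, 144 genes differed, 89 higher and 55 lower. Quantile normalisation gave 181 (95 and 86), median scaling 205 (126 and 79) and a pseudocount in place of the floor 176 (101 and 75). Floors of 10 and 50 left 206, an outcome fixed in advance. A value under 50 is at least 2-fold from a value of 100 or more at any of these floors. No gene named by the rule and past 2-fold changed direction under these scalings, floors or the pseudocount. Under quantile normalisation 9 of them fell inside 2-fold, namely Uqcrq (-0.91), Atp5md (-0.83), Atp5l (-0.74), Ndufa2 (-0.97), Psma7 (-0.97), Rbm39 (0.93), Mvk (0.93), Btk (0.99) and Hmgcs1 (0.99), and Bok went past it (-1.02). Rpl41 was equal in both clones there, because equal ranks take equal values. The floor set the size of the largest differences, and Tmsb4x ranged from -5.14 to -2.62 and Atm from 1.83 to 3.13. The lean of the brightest probe sets and of ribosomal protein genes toward B5 held under median scaling and was lost or nearly so under quantile normalisation. Median scaling shifts nearly all ratios by the same small amount. Quantile normalisation largely removes a lean of the brightest probe sets by construction. Neither outcome is thus a check on that lean. List medians near 0 changed sign for MHC class I (0.02) and the list of germline genes and DNA methylation factors (0.06) under quantile normalisation, and for the integrated stress response and the cytoskeleton (0.01 each) under median scaling. No paired analysis was possible because each group has 1 array. Leaving out a replicate was likewise not possible.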
